A study of Mus musculus with 12 samples.

Results

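The 10 genes described here, Prps1, Ppat, Gart, Pfas, Paics, Adsl, Atic, Impdh1, Impdh2 and Gmps, encode the enzymes that build purine nucleotides from small precursors. They were chosen by gene symbol from a table of 57180 genes, and each symbol matched 1 gene. RNA-seq had been done on 12 libraries of mouse E14 DOX-CRISPRi embryonic stem cells (ESCs), 3 in each of 4 groups. In this line doxycycline (DOX) switches on a repressor protein that guide RNAs bring to a start site. Neg cells carried scramble guides and 3xKD cells carried guides against Pcx, Me1 and Me2, the enzymes of pyruvate cycling. Both lines were sequenced as Neg ESCs and 3xKD ESCs (day 0, kept in N2B27 medium with 2i and LIF) and as Neg EpiLCs and 3xKD EpiLCs (day 2 of conversion with Activin A, Fgf2 and XAV939 into epiblast-like cells, which resemble the formative stage of pluripotency). All 4 groups came from the same repressor line, which was grown from a picked colony, and the study's methods describe DOX in the culture, which the labels do not name. Each condition was 1 guide-carrying line, so an effect of the guides and a difference between these lines cannot be told apart. The study's methods describe biological triplicates in general terms, while the labels do not say that these replicates were separate cultures. If they were not, p-values measure only the spread between libraries, which may be technical.

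Purine rings are assembled on an activated ribose, PRPP. Prps1 makes PRPP, Ppat commits it to the pathway, and Gart, Pfas, Paics, Adsl and Atic complete the ring to give inosine monophosphate (IMP), several of them catalysing more than a single step. Impdh1 or Impdh2 and then Gmps turn IMP into GMP, while adenylosuccinate synthetase, encoded by Adss and Adssl1, and again Adsl turn it into AMP. The pathway uses glutamine, glycine, aspartate, carbon dioxide and formyl groups carried by folate, and rapidly dividing cells such as ESCs draw on it heavily.

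Libraries held between 11221023 and 19652197 estimated counts. The repressed genes were lower in every 3xKD library: Pcx had log2 fold changes of -1.14 in ESCs and -1.05 in EpiLCs, Me1 of -0.89 and -1.05, and Me2 of -0.95 and -0.98. The summed level of 8 naive ESC markers was 4157 to 4279 CPM (counts scaled to a common library size) in Neg ESCs and 2923 to 2976 in 3xKD ESCs, but 308 to 321 in Neg EpiLCs and 398 to 415 in 3xKD EpiLCs, and that of 6 formative markers was 3025 to 3390 in Neg EpiLCs and 1728 to 1792 in 3xKD EpiLCs, so cell state markers also differed between the lines. Their part in the results below was not tested. Marker lists of primitive endoderm, trophoblast, mesoderm and fibroblasts summed to at most 31.9 CPM in any library. In bulk RNA, fewer cells of a type and less RNA per cell cannot be told apart.

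Levels between genes were compared in TPM, transcript abundances that correct for length, and then as a gene's share of the TPM of all 10 genes in a library. In Neg ESCs the mean TPM was 204 ± 40.7 (SD, n = 3) for Paics, 125 ± 26.2 for Impdh2, 115 ± 20.7 for Gart, 72.1 ± 12.5 for Adsl, 49.7 ± 8.49 for Prps1, 43.2 ± 8.22 for Atic, 30.8 ± 7.14 for Ppat, 26.7 ± 5.90 for Pfas, 19.5 ± 5.12 for Impdh1 and 12.7 ± 2.54 for Gmps. By TPM Gmps, which was counted on 1 transcript of 9154 bases, was the lowest of the 10 in every library. Without length correction its mean in Neg ESCs, 159 CPM, was above those of Ppat (146), Prps1 (108), Adsl (104) and Impdh1 (59.1). Paics took 28.4% to 29.7% of the summed TPM there, above Impdh2 (16.8% to 18.7%) and Gart (16.1% to 17.0%), whose ranges overlapped, as did those of Ppat (4.09% to 4.60%) and Pfas (3.40% to 4.14%). In EpiLCs of both lines the order at the top had changed, with Gart above Paics. In Neg EpiLCs Gart took 23.9% to 25.2% and Paics 22.5% to 22.7%. In 3xKD EpiLCs the shares were 30.2% to 33.3% for Gart, 24.1% to 25.8% for Paics and 12.7% to 13.5% for Impdh2. In 3xKD ESCs Paics (28.9% to 29.4%) was still above Gart (23.3% to 24.4%) by TPM. Without length correction the order there was the reverse, with means of 472 CPM for Gart and 393 for Paics. TPM of a gene with short annotated transcripts is raised by few reads: the 2-exon Gart transcript ENSMUST00000232640 took 13.7% of the gene's TPM in Neg ESCs and 1.72% of its counts. Paics was raised more. There ENSMUST00000141687 took 37.9% of TPM and 6.75% of counts, and ENSMUST00000154688 took 12.1% and 2.42%. Without length correction, means in Neg ESCs were 314 CPM for Paics, 296 for Gart and 294 for Impdh2. The order by TPM thus rests in part on the annotated transcripts. The remaining comparisons therefore used counts, normalized as CPM by edgeR's TMM method and tested over 25446 genes with edgeR's quasi-likelihood test and Benjamini-Hochberg adjustment. All adjusted p-values below come from that fit.

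**Figure D1:**
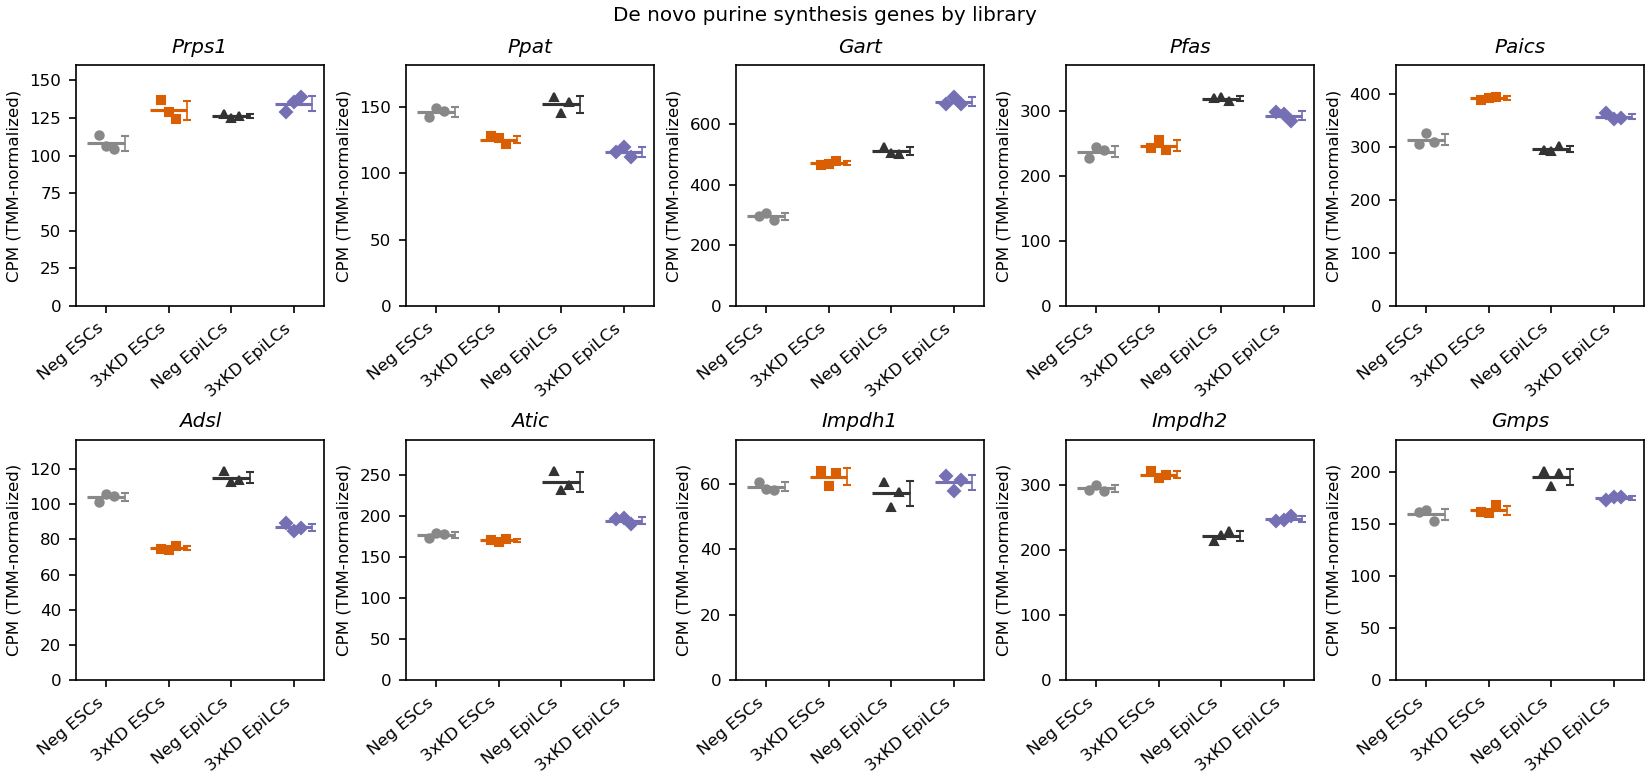
CPM of the 10 genes in each of the 12 libraries, with 1 panel a gene, y axes from 0, horizontal lines at group means and bars to their right for the SD (n = 3). Gart lies between 286 and 308 CPM in Neg ESCs and between 666 and 692 in 3xKD EpiLCs, while Impdh1 stays between 53.0 and 64.0 in all libraries.

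The first question was whether the 10 genes moved together when pyruvate cycling enzymes were repressed, and they did not. In ESCs, 1 of 10 (Gart) was called, which took a log2 change of more than 0.58 up or down together with an adjusted p below 0.01, where 15.3% of all genes tested were. At the adjusted p alone, Gart, Paics and Prps1 rose and Adsl and Ppat fell. Those 5 of 10 compare with 31.6% of all genes and with 64.1% of the 3799 genes whose mean level was at least that of the lowest member (59.7 CPM), so the count was not above that of genes of similar level. The median log2 fold change of the 10 was 0.06, beside 0.03 over all genes. The ranges of Neg and 3xKD ESCs did not overlap for 7 of 10, against 49% of all genes. Here and in the comparisons below, the share without overlap was not worked out for genes of similar level. These counts therefore cannot be read as an excess over such genes.

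In EpiLCs, 0 of 10 genes were called in 3xKD against Neg, where 13.2% of all genes were, since no member passed the fold limit (8 had an unadjusted p under 0.05, and DESeq2 also called 0). At the adjusted p alone, 3 were higher (Gart, Paics and Impdh2) and 5 lower (Adsl, Ppat, Atic, Gmps and Pfas). These 8 of 10 compare with 29.9% of all genes and 66.6% of the genes of similar level. With transcript-length offsets 4 of 10 passed. The median of the 10 was -0.02, beside 0.03 over all genes, and 9 of 10 had ranges that did not overlap, against 47.2%.

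The second question was how the 10 genes changed as ESCs became EpiLCs. In Neg cells 1 of 10 (again Gart) was called, where 20.8% of all genes were. Gart, Atic, Pfas, Gmps, Prps1 and Adsl were higher and Impdh2 was lower at the adjusted p alone, 7 of 10 beside 35.7% of all genes and 68.4% of the genes of similar level. The median log2 fold change was 0.19, beside 0.01 over all genes, and 8 of 10 had ranges that did not overlap, against 51.7%. In 3xKD cells 0 of 10 were called, where 18.7% of all genes were (8 had an unadjusted p under 0.05, and DESeq2 called 0). Gart, Pfas, Adsl and Atic were higher and Impdh2 and Paics lower, 6 of 10 beside 33.8% of all genes and 64.5% of the genes of similar level, with a median of 0.07 beside 0.01 over all genes. Ranges did not overlap for 8 of 10, against 51.7% of all genes. The Neg and 3xKD conversions share libraries with the comparisons of the lines, so these counts are not independent of each other.

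**Figure D2:**
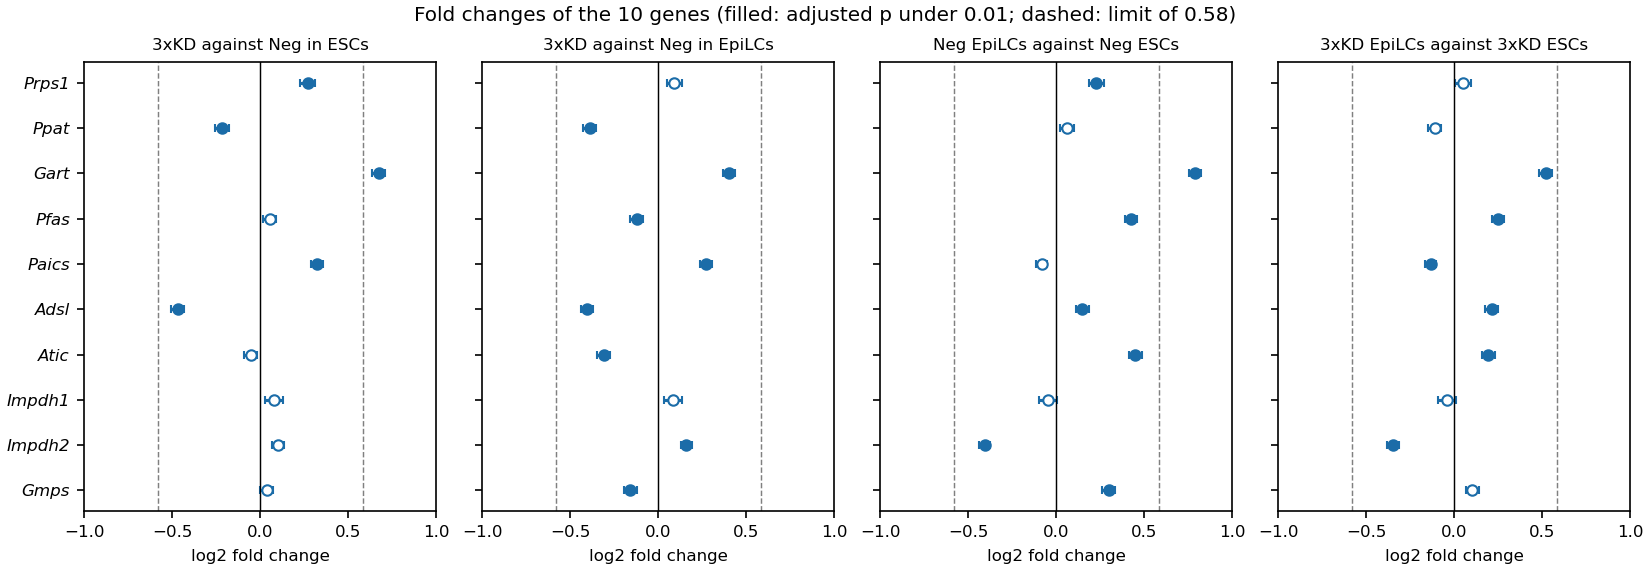
Log2 fold change of each gene (x axis) in the 4 comparisons, with bars for the SE, filled points for an adjusted p under 0.01, and dashed lines at the fold limit of 0.58. Only Gart passes the dashed line, at 0.67 in ESCs and 0.79 in the Neg conversion, and points lie on both sides of 0 in every panel.

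Prps1, on chromosome X, makes the PRPP from which the pathway starts. It measured 114, 106 and 105 CPM in Neg ESCs, 137, 129 and 124 in 3xKD ESCs, 128, 125 and 126 in Neg EpiLCs, and 129, 135 and 139 in 3xKD EpiLCs. Neg ESCs were the low group, and the other 3 groups lay close together. Prps1 rose in 3xKD ESCs (log2 fold change 0.27 ± 0.04 SE, adjusted p = 8.12e-05) and in the Neg conversion (0.23, adjusted p = 0.000363), and gave 0.09 in 3xKD EpiLCs (adjusted p = 0.113).

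Ppat and Paics overlap at their 5′ ends on chromosome 5 (GRCm39). Ppat, the amidotransferase of the committed step, runs on the minus strand from 77099436 to 77061096, and Paics, whose product carries out a carboxylation and the addition of aspartate, runs on the plus strand from 77099139 to 77116370. Their annotated start sites are 297 bp apart and each lie inside the first exon of the other gene's main annotated transcript. Ppat measured 142, 149 and 147 CPM in Neg ESCs and 128, 126 and 122 in 3xKD ESCs. It measured 158, 145 and 154 CPM in Neg EpiLCs and 116, 120 and 112 in 3xKD EpiLCs. Every 3xKD library was below every Neg library of its state.

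Paics went the other way. It measured 306, 327 and 310 CPM in Neg ESCs and 389, 394 and 395 in 3xKD ESCs. In EpiLCs it measured 294, 293 and 303 CPM in Neg and 364, 354 and 356 in 3xKD, again without overlap. Ppat fell by 0.22 ± 0.04 (SE) on the log2 scale in ESCs (adjusted p = 0.000212) and by 0.39 ± 0.04 in EpiLCs (adjusted p = 4.69e-07). Paics rose by 0.32 ± 0.03 in ESCs (adjusted p = 4.38e-07) and 0.27 ± 0.03 in EpiLCs (adjusted p = 3.33e-06).

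The ratio of Paics to Ppat counts within a library needs no scaling between libraries. It was 2.15, 2.19 and 2.11 in Neg ESCs, 3.05, 3.11 and 3.23 in 3xKD ESCs, 1.86, 2.01 and 1.97 in Neg EpiLCs, and 3.14, 2.94 and 3.18 in 3xKD EpiLCs. All 6 3xKD libraries were above all 6 Neg libraries. The conversion itself left Ppat at an adjusted p of 0.252 in Neg cells and 0.0284 in 3xKD cells, and Paics at 0.0436 in Neg cells. Paics was lower in 3xKD EpiLCs than in 3xKD ESCs (-0.13, adjusted p = 0.00241), a difference that upper-quartile scaling left at an adjusted p of 0.107. Reads in the stretch that both first exons share can be assigned only by strand, and the strand setting used in counting is not given in the sources used here.

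**Figure D3:**
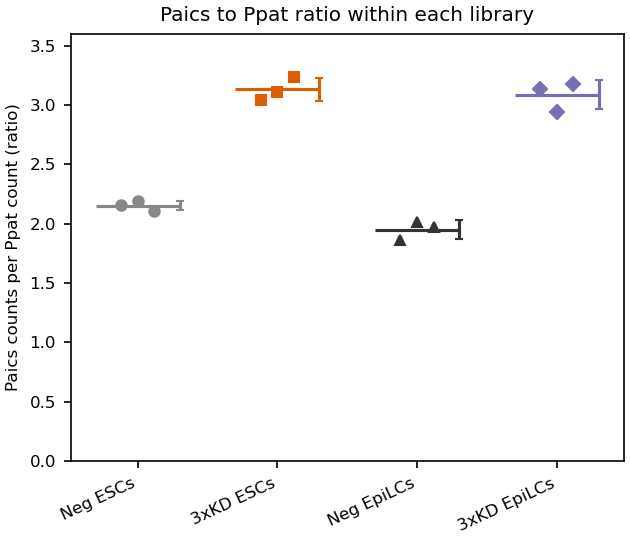
Counts of Paics per count of Ppat in each library (y axis from 0), with group means as lines and SD bars (n = 3). The Neg libraries of both states lie between 1.86 and 2.19 and the 3xKD libraries between 2.94 and 3.23.

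Gart, on the minus strand of chromosome 16 (91416576 to 91444536), encodes an enzyme with 3 activities of the ring assembly and had the largest log2 fold change of the members in 3 of the 4 comparisons (in EpiLCs, 3xKD against Neg, Adsl was at -0.41 and Gart at 0.40). It measured 296, 308 and 286 CPM in Neg ESCs, 466, 471 and 480 in 3xKD ESCs, 526, 504 and 503 in Neg EpiLCs, and 666, 692 and 668 in 3xKD EpiLCs. The groups rose in that order without overlap. In 3xKD ESCs it was 1.59-fold higher than in Neg ESCs (log2 0.67 ± 0.03 SE, adjusted p = 2.2e-10), and in 3xKD EpiLCs 1.32-fold higher than in Neg EpiLCs (0.40 ± 0.03, adjusted p = 7.52e-08). The conversion raised it 1.72-fold in Neg cells (0.79 ± 0.03, adjusted p = 8.03e-12) and 1.43-fold in 3xKD cells (0.52 ± 0.03, adjusted p = 2.1e-09).

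Genes of chromosome 16 as a whole were higher in the 3xKD line. Over the 454 of them with a mean of at least 1 CPM the median log2 fold change was 0.30 in ESCs, with 107 called higher and 19 lower, and 0.30 in EpiLCs, with 118 higher and 9 lower. Gart exceeded these medians by 0.37 and 0.10, and ranked 94 and 187 among the 454 genes. In the conversion the same chromosome had medians of -0.11 in Neg and -0.09 in 3xKD cells, and Gart lay 0.89 and 0.61 above them. The part of the chromosome-wide shift in the 3xKD difference of Gart was not tested. Chromosomes 5 and 15, which hold Paics, Ppat and Adsl, had medians between -0.04 and 0.06 in the comparisons of the lines.

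The start site of Son, a splicing cofactor gene, lies 84 bp from that of Gart on the opposite strand. Son measured 544, 580 and 570 CPM in Neg ESCs, 628, 623 and 647 in 3xKD ESCs, 819, 800 and 831 in Neg EpiLCs, and 725, 712 and 671 in 3xKD EpiLCs. It was thus higher in 3xKD ESCs (0.16, adjusted p = 0.00164) and lower in 3xKD EpiLCs (-0.22, adjusted p = 0.000132), where Gart was higher in both. Counts of Gart per count of Son had means of 0.525 ± 0.0221 (SD, n = 3) in Neg ESCs, 0.746 ± 0.00828 in 3xKD ESCs, 0.626 ± 0.0186 in Neg EpiLCs and 0.962 ± 0.0389 in 3xKD EpiLCs.

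**Figure D4:**
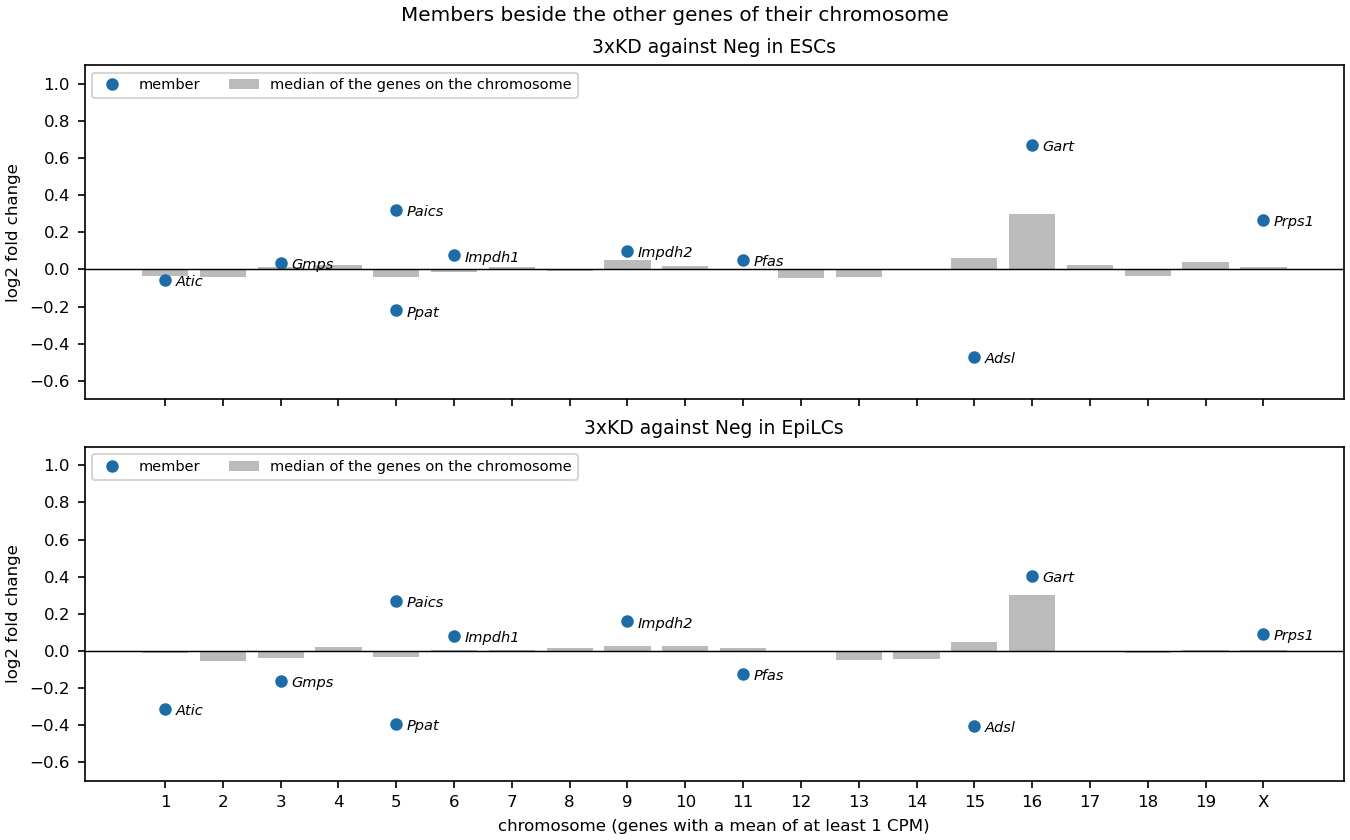
Log2 fold change of 3xKD against Neg in ESCs (top) and EpiLCs (bottom), with grey bars for the median of the genes of each chromosome (mean of at least 1 CPM) and points for the 10 genes. Chromosome 16 has a median of 0.30 in both states, below Gart at 0.67 and 0.40, and Adsl lies at -0.47 and -0.41 on chromosome 15.

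Pfas, which adds an amide nitrogen from glutamine, measured 228 to 245 CPM in Neg ESCs, 241 to 256 in 3xKD ESCs, 316 to 323 in Neg EpiLCs and 285 to 298 in 3xKD EpiLCs. The states were separate and the lines overlapped in ESCs. Pfas rose in the conversion of Neg cells (0.42 ± 0.04, adjusted p = 2.97e-08) and of 3xKD cells (0.25 ± 0.04, adjusted p = 2.01e-05). Its value of -0.12 in 3xKD against Neg EpiLCs had an adjusted p of 0.00934, and without any single EpiLC library, whichever of the 6 was left out, the adjusted p lay between 0.0127 and 0.0378.

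Adsl encodes adenylosuccinate lyase, which acts both in ring assembly and in the AMP branch. It measured 101, 106 and 104 CPM in Neg ESCs and 74.8, 74.1 and 76.4 in 3xKD ESCs. In EpiLCs it measured 119, 113 and 114 CPM in Neg and 89.1, 85.0 and 86.7 in 3xKD. The lines did not overlap in either state. Adsl fell by 0.47 ± 0.04 (SE) on the log2 scale in 3xKD ESCs (adjusted p = 2.3e-08) and by 0.41 ± 0.04 in 3xKD EpiLCs (adjusted p = 1.17e-07), the largest decreases of a member in these comparisons. With transcript-length offsets the EpiLC value was -0.38 and the adjusted p 0.0393. In the conversion Adsl rose by 0.15 in Neg cells (adjusted p = 0.00272) and 0.21 in 3xKD cells (adjusted p = 0.000149), and with the same offsets these values were 0.02 (adjusted p = 0.923) and 0.17 (adjusted p = 0.341).

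Atic, which adds the last formyl group and closes the ring to IMP, measured 173, 179 and 178 CPM in Neg ESCs and 171, 168 and 171 in 3xKD ESCs. It measured 255, 231 and 237 CPM in Neg EpiLCs and 196, 198 and 190 in 3xKD EpiLCs. The lines were close in ESCs and well apart in EpiLCs, where 3xKD was 0.806-fold of Neg (-0.31 ± 0.04, adjusted p = 3.06e-06), beside -0.06 ± 0.04 in ESCs (adjusted p = 0.271). The conversion raised Atic 1.36-fold in Neg cells (0.45 ± 0.04, adjusted p = 2.43e-08) and 1.14-fold in 3xKD cells (0.19 ± 0.04, adjusted p = 0.000374).

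The difference between states in the 3xKD effect was tested as an interaction term, with an adjusted p under 0.01 as its limit. Gart (-0.27 ± 0.05, adjusted p = 0.000929) and Atic (-0.26 ± 0.05, adjusted p = 0.00238) passed, 2 of 10 beside 10% of all genes and 29% of the genes of similar level. The 3xKD effect was lower in EpiLCs than in ESCs for both, a smaller increase for Gart and a decrease in EpiLCs for Atic. Scaling by library size alone left them at adjusted p-values of 0.0177 and 0.0235, and transcript-length offsets at 0.0563 and 0.0177. Without the second Neg EpiLC library 4 members passed, with Ppat and Gmps added. The median over the 10 genes was -0.17, beside 0.00 over all genes. Son, the neighbour of Gart, had an interaction term of -0.38 (adjusted p = 6.53e-05).

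After IMP, the GMP branch split by gene. Impdh2, the isoform usually dominant in proliferating cells, measured 292, 300 and 291 CPM in Neg ESCs, 321, 311 and 314 in 3xKD ESCs, 214, 223 and 228 in Neg EpiLCs, and 244, 246 and 252 in 3xKD EpiLCs. At an adjusted p under 0.01 it was the only member lower in the conversion of Neg cells (-0.41 ± 0.03, adjusted p = 1.61e-08), and it fell in 3xKD cells too (-0.35 ± 0.03, adjusted p = 1.29e-07). The 3xKD line had more of it in EpiLCs (0.16 ± 0.03, adjusted p = 0.000805) and gave 0.10 ± 0.03 in ESCs (adjusted p = 0.02).

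Gmps, which follows IMP dehydrogenase, measured 153 to 163 CPM in Neg ESCs, 160 to 168 in 3xKD ESCs, 187 to 201 in Neg EpiLCs and 173 to 176 in 3xKD EpiLCs. It rose in the Neg conversion (0.30 ± 0.04, adjusted p = 4.17e-06), in which Impdh2 fell. In 3xKD EpiLCs it was lower than in Neg EpiLCs (-0.16 ± 0.04, adjusted p = 0.00207), although leaving out the first or the third Neg EpiLC library gave adjusted p-values of 0.0107 and 0.0114.

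Impdh1 passed in none of the 5 tests, with log2 fold changes between -0.05 and 0.08 and SEs of 0.05 in the 4 comparisons. By unadjusted p under 0.05 the count was also 0. The shares of its transcripts differed more between groups. Impdh1 lies on the minus strand of chromosome 6, and 2 annotated transcripts of different starts held most of its counts: the 15-exon ENSMUST00000159124 from base 29216363 and the 14-exon ENSMUST00000078155 from base 29212296. The bases before these starts are shown because the finding concerns which start the transcripts come from. They are from the RefSeq promoter table (GRCm38.p6) and were placed on GRCm39 by exact match, 5′ to 3′ on the minus strand, with the 20 bases next to the start in capitals. For the upstream start 250 bases are printed, and for the downstream start only 30. Those 30 bases lie in annotated untranslated sequence of Impdh1 itself.
Impdh1 upstream start, chr6:29216364-29216613: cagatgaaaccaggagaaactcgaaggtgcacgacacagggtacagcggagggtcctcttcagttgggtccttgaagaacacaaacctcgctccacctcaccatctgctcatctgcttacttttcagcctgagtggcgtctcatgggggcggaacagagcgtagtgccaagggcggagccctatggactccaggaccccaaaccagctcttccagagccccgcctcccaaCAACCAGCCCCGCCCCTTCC
Impdh1 downstream start, chr6:29212297-29212326: gcccggggccTCCCTCCGCAGCCGCAGCCC

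The share of Impdh1 counts given to the upstream-start transcript was 38.6%, 27.0% and 30.3% in Neg ESCs and 48.9%, 49.2% and 51.8% in 3xKD ESCs. It was 16.4%, 14.1% and 13.6% in Neg EpiLCs and 13.5%, 17.0% and 21.8% in 3xKD EpiLCs. ESCs were above EpiLCs in both lines, and 3xKD ESCs above Neg ESCs, while the lines overlapped in EpiLCs. The difference was 18.0 percentage points between the lines in ESCs and 2.75 in EpiLCs, and EpiLCs minus ESCs was -17.3 points in Neg and -32.5 points in 3xKD cells.

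By two-sided exact permutation tests the share gave p = 0.1 in ESCs, 0.4 in EpiLCs, and 0.1 in each conversion, and 0.1 is the smallest p that 3 against 3 libraries allow, so none of the 4 could pass 0.05. In CPM the upstream transcript had 15.7 to 23.4 in Neg ESCs and 7.48 to 9.94 in Neg EpiLCs, and the downstream one 29.0 to 35.3 and 39.6 to 50.4. This gene was singled out after its values were seen. The shares are Salmon's estimates for transcripts that end at the same base and share exons.

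**Figure D5:**
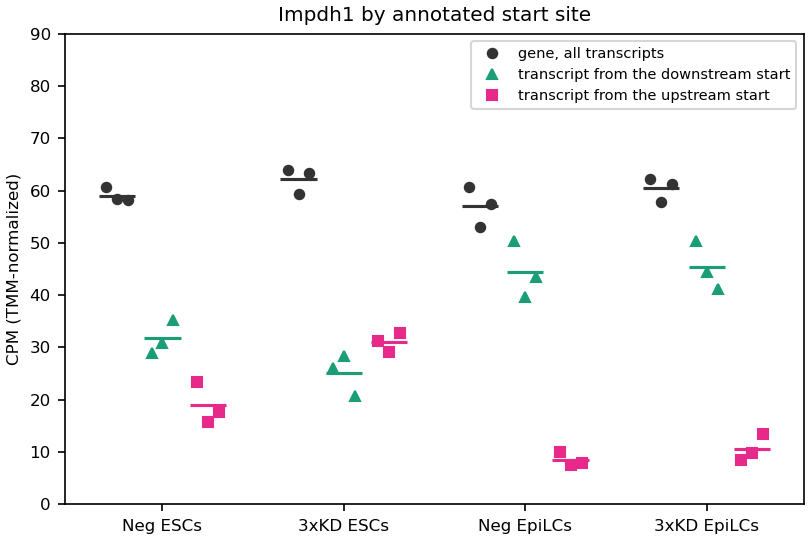
CPM of Impdh1 (circles, all transcripts), of its downstream-start transcript (triangles) and of its upstream-start transcript (squares) in each library, with means as lines (n = 3). The gene stays between 53.0 and 64.0 CPM, while the upstream transcript goes from 29.2 to 32.8 in 3xKD ESCs to 8.42 to 13.4 in 3xKD EpiLCs.

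In Gart, the 11-exon transcript ENSMUST00000120450, which ends early in the gene, held 9.50% to 10.7% of Gart counts in Neg ESCs and 6.89% to 7.22% in Neg EpiLCs. In 3xKD EpiLCs it held 7.37%, 7.92% and 0.00%, and the last value shows how far the estimates can move between replicates.

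Promoter windows of 300 bases (250 before and 50 after a RefSeq start) were found for 9 of the 10 genes, with 10 windows since Impdh1 has a pair of them. Pfas had no entry. The E-box CACGTG, the motif bound by Myc with Max and by related factors, reads the same on both strands. Of the 10 member windows it was present in 3, those of Atic, Paics and Impdh2, beside 7.15% of all 32851 windows. In the Neg conversion these 3 genes moved differently: Atic rose, Impdh2 fell and Paics gave -0.08 (adjusted p = 0.0436). Against Neg, 3xKD gave 0.32 in ESCs and 0.27 in EpiLCs for Paics, and 0.10 and 0.16 for Impdh2. Atic gave -0.06 and -0.31. A part of the motif in these changes was not tested. The sites are given with 10 bases on each side and the motif in capitals, on the plus strand of GRCm39, and are shown to make plain how their positions differ. Positions are counted from the RefSeq start of the window, which is not the start of the main GENCODE vM39 transcript. Against the latter the Atic motif spans the start and the Impdh2 motif begins 40 bases after it, inside the annotated leader. The Paics motif begins at -193, and the 26 bases printed for Paics lie in annotated untranslated sequence of Ppat.
Atic, chr1:71596298-71596323, motif 7 to 2 bases before the RefSeq start: acctcggggtCACGTGgggtcgacac
Paics, chr5:77098936-77098961, motif 203 to 198 bases before the RefSeq start: cctcggaaagCACGTGgagggacctg
Impdh2, chr9:108437515-108437540, motif 110 to 105 bases before the RefSeq start: gctcgataagCACGTGgttacccagc

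A match is a description of letters and not of binding. Among 4 transcription factors tied to purine gene expression, Mycn measured 98.9 to 102 CPM in Neg ESCs and 47.2 to 51.1 in 3xKD ESCs, and 133 to 148 in Neg EpiLCs against 38.9 to 41.9 in 3xKD EpiLCs (-1.05 and -1.81, adjusted p = 7.03e-11 and 6.35e-13). Myc was scarce in ESCs, at 3.10 to 5.71 CPM in Neg and 0.849 to 1.29 in 3xKD (-2.10, adjusted p = 4.39e-07), and reached 52.7 to 57.0 in Neg EpiLCs and 64.0 to 67.9 in 3xKD EpiLCs. Max, the shared binding partner of the Myc proteins, fell by 0.65 in 3xKD ESCs (adjusted p = 6.01e-08) and by 0.52 in 3xKD EpiLCs (adjusted p = 7.82e-07). Atf4, a driver of amino acid and one-carbon genes under stress, rose by 0.40 in 3xKD ESCs (adjusted p = 1.93e-07) and 0.17 in 3xKD EpiLCs (adjusted p = 0.00137), without passing the fold limit.

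Of 49 tested genes around the pathway, in 7 lists (AMP branch, other PRPP synthetases, salvage, breakdown and interconversion, nucleotide kinases, formyl-folate supply and these transcription factors), 5 were called higher and 5 lower in 3xKD ESCs (20.4% beside 15.3% of all genes), and 3 and 5 in 3xKD EpiLCs (16.3% beside 13.2%). In the conversion 4 were called higher and 5 lower in Neg cells (18.4% beside 20.8%), and 7 and 7 in 3xKD cells (28.6% beside 18.7%). Calls went both ways in each comparison. Prps1l1 was not tested.

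In the AMP branch, Adss carried nearly all counts, with 167 to 172 CPM in Neg ESCs, and gave -0.25 in 3xKD EpiLCs (adjusted p = 4.35e-05). Adssl1, the muscle-type form, was scarce, at 1.58 to 1.79 CPM in Neg ESCs and 5.94 to 6.65 in 3xKD ESCs. It was called higher in 3xKD in ESCs (1.91, adjusted p = 1.43e-07) and EpiLCs (1.24, adjusted p = 6.97e-05). Among PRPP synthetases Prps2, a paralog of Prps1, was called higher in the conversion: it measured 43.5 to 49.4 CPM in Neg ESCs and 115 to 118 in Neg EpiLCs (1.30, adjusted p = 5.25e-13), and 60.2 to 65.2 in 3xKD ESCs and 109 to 113 in 3xKD EpiLCs (0.84, adjusted p = 1.47e-10). Against Neg, 3xKD gave 0.40 in ESCs but -0.06 in EpiLCs, a difference between states of -0.46 (adjusted p = 9.81e-05). Prps1l3 was called lower in 3xKD in ESCs (-0.67) and EpiLCs (-0.82). It is a close copy of Prps1, and reads may be split between them.

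Among 8 salvage genes, which recover purine bases and nucleosides, 1 was higher and 1 lower in 3xKD at the adjusted p alone in each state, below the fold limit: Aprt (0.52) and Pnp (-0.48) in ESCs, and Mtap (0.21) and Adk (-0.28) in EpiLCs, named after their values were seen. Over all genes 31.6% and 29.9% passed that limit. Adk, adenosine kinase, was called higher in the conversion of Neg cells (1.90, adjusted p = 2.21e-13), from 16.9 to 19.4 CPM in Neg ESCs to 63.5 to 69.5 in Neg EpiLCs, and of 3xKD cells (1.70, adjusted p = 1.38e-12). Aprt, which salvages adenine, fell by 0.98 in the conversion of 3xKD cells (adjusted p = 2.55e-10). Hprt, which salvages hypoxanthine and guanine, lay between 0.0624 and 0.671 CPM in all 12 libraries. It was picked out after its values were seen.

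Formyl groups for Gart and Atic come from one-carbon enzymes. Mthfd2 is 1 of the mitochondrial enzymes of that supply. It rose in 3xKD ESCs from 59.1 to 62.3 CPM to 104 to 109 CPM (0.80, adjusted p = 1.53e-10). In 3xKD EpiLCs it rose from 70.3 to 74.2 to 117 to 126 (0.74, adjusted p = 3.27e-10). Aldh1l1, which consumes formyl-folate, rose in both (0.59 and 0.65, adjusted p = 0.00033 and 0.00234) from a low level, and Shmt1, the cytosolic serine enzyme, fell by 0.61 in 3xKD ESCs (adjusted p = 3.14e-08). At the adjusted p alone 5 of the 11 genes of this list were higher and 1 lower in 3xKD ESCs, and 4 and 2 in 3xKD EpiLCs, where 31.6% and 29.9% of all genes passed and 64.1% and 66.6% of the genes at or above the lowest member's level. In the conversion Aldh1l1 fell by 2.27 in Neg and 2.21 in 3xKD cells, and Shmt1 by 0.78 in Neg cells. Mthfd2l, a paralog of Mthfd2, was called higher in Neg cells (0.79, adjusted p = 0.00417) and Slc25a32, the mitochondrial folate carrier, in 3xKD cells (0.77, adjusted p = 9.75e-07). At the adjusted p alone 5 of the list were higher and 3 lower in the Neg conversion, and 2 and 4 in the 3xKD conversion. Of all genes 35.7% and 33.8% passed there, and 68.4% and 64.5% of the genes at or above the lowest member's level.

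Genes that act on finished purine nucleotides gave a few calls. Among 9 kinases Ak4, a mitochondrial adenylate kinase, fell in the conversion by 1.58 in Neg and 1.29 in 3xKD cells, from 373 to 386 CPM in Neg ESCs to 122 to 133 in Neg EpiLCs. Ak1, the cytosolic form, was lower in 3xKD EpiLCs (-1.05, adjusted p = 4.67e-10). Among 11 genes of breakdown and interconversion, 2 were called higher in 3xKD ESCs, both at low levels: Ada, adenosine deaminase, from 2.22 to 3.01 CPM in Neg to 4.67 to 5.68 in 3xKD (0.94, adjusted p = 0.000302), and Gmpr, GMP reductase (0.62, adjusted p = 0.00949). Ampd2, an AMP deaminase, was called higher in the conversion of 3xKD cells (0.69, adjusted p = 7.14e-08). In that comparison Gmpr (-0.60, adjusted p = 0.00984) and Ampd3 (-0.59, adjusted p = 0.000255) were called lower. Xdh was called lower in the Neg conversion (-1.61, adjusted p = 0.0073), at means of 1.11 CPM in Neg ESCs and 0.362 in Neg EpiLCs. Nt5c2, a nucleotidase acting on IMP and GMP, was lower in 3xKD EpiLCs (-0.64, adjusted p = 2.08e-07), with 41.8 to 44.5 CPM in Neg and 25.8 to 29.0 in 3xKD EpiLCs. It was lower in 3xKD ESCs too (-0.56, adjusted p = 1e-06), short of the fold limit, and its interaction term had an adjusted p of 0.613.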

How the data were processed

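RNA-seq was done by the authors on 12 libraries (rRNA-depleted, directional, single-end by the study's methods; the labels' molecule field says polyA RNA). Per the labels and methods the authors used Trim Galore 0.6.7, STAR 2.7.9a on GRCm39 and Salmon 1.10.1. The authors deposited, per transcript, unnormalized estimated counts from Salmon, TPM values scaled for length, and transcript lengths in bases (kept as a score, used by the authors' quantifier for TPM). The strand setting is not given in the sources used here. Libraries were grouped by title, because the cell-type field gives 1 state to every library of a line, and no batch is labelled.

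Here the counts of a gene's transcripts were added up and rounded. Genes with at least 10 counts over all libraries (25446 of 57180) were scaled by TMM factors and tested in edgeR 4.0.16 (R 4.3.3) by quasi-likelihood, the 4 groups in 1 fit, after the fit had been tested on simulated data. A call needed a log2 change beyond 0.58 either way and a Benjamini-Hochberg adjusted p below 0.01; the adjusted p alone was added after seeing the data. GENCODE vM39 matched 99.0% of genes and 99.9% of counts. Alternatives were DESeq2 1.42.0, RLE, upper-quartile and library-size scaling, filterByExpr, no filter, transcript-length offsets, a limit of 0.05, the compared groups alone, a replicate block and each library left out. Replicate pairs were further apart than sampling noise (chi-square over its degrees of freedom 2.84 to 16.4). Named were all members, Pcx, Me1, Me2, Adss, Adssl1, Prps2, protein-coding neighbours on the opposite strand, at most the 3 largest called genes of a list in a comparison, and transcripts with at least 10% of a gene's TPM; exceptions are stated. Members and lists were chosen with earlier results of these data known.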

Additional observations from a re-analysis of the deposited data

Results flagged for a closer look

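The 3xKD effect differed between EpiLCs and ESCs, by the interaction term, for Gart (-0.27 on the log2 scale, EpiLCs minus ESCs) and Atic (-0.26). In ESCs and EpiLCs the effects themselves were 0.67 and 0.40 for Gart and -0.06 and -0.31 for Atic. Neither passed with library size alone or with transcript-length offsets.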

How the results depend on the processing

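No direction of a called result reversed under any alternative run. Of the values of single genes under alternatives, 797 stayed on their side of the limit, 32 lost it and 21 gained it. With an adjusted p under 0.05 and no fold limit, 6 members passed in 3xKD against Neg ESCs (10142 of all genes), 8 in EpiLCs (9694), 8 in the Neg conversion (11231), 8 in the 3xKD conversion (10838) and 5 for the difference between states (4127), as a wider limit must give. Upper-quartile scaling called 1 member (Gart) in the 3xKD conversion. Library size alone and transcript-length offsets left 0 members in the difference between states, and the offsets left 731 genes there and 4 members past the adjusted p in EpiLCs; the cause was not tested. The median of the members moved in the 3xKD conversion to 0.10 with RLE factors, 0.15 with upper-quartile factors, 0.11 with library size alone and 0.10 with DESeq2. It moved in the Neg conversion to 0.27, 0.15 and 0.24 with upper-quartile factors, library size alone and the offsets. In EpiLCs, where it was near 0, it moved to 0.038 with library size alone, 0.011 without a filter and -0.10 with the offsets, and for the difference between states to -0.10 with library size alone and -0.15 without a filter. Leaving out 1 library at a time gave 2 to 4 members and medians of -0.20 to -0.15 for the difference between states, and medians of 0.18 to 0.23 in the Neg and 0.065 to 0.10 in the 3xKD conversion.

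Same-numbered replicates did not deviate together (correlations -0.138 to 0.0949), and the numbers were not used to pair the libraries. With 3 libraries a group, this check cannot exclude that same-numbered libraries were prepared together. With the replicate number as a block, 5 and 8 members passed the adjusted p in ESCs and EpiLCs and 7 and 6 in the conversions, as without it, and 3792, 3277, 5169, 4664 and 2321 of all genes were called. Every member averaged at least 59.7 CPM, and the number of libraries, 3 a group, limits the precision.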
